A study of Mus musculus with 2 samples.

Results

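The G2 and mitosis genes described here are 44 listed genes that act between the end of DNA replication and the separation of the daughter cells. All 44 were present in both deposited tables, out of 27842 genes found in either table. They were taken as a list of names, and the rule itself uses no measured value, although the list was drawn up with earlier results of these data known. Their level was followed in marker-defined cell classes of each library. A cell was counted as detecting the programme when at least 3 of the 44 genes had a count after every cell had been thinned at random to 1000 counts.

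Bone marrow of femurs and tibias, strain C57/BL6, was profiled by single-cell RNA sequencing on the Singleron GEXSCOPE platform. The animals behind the control library were given sodium citrate solution and had normal blood sugar, and those behind the T1D library were given streptozotocin and had high blood sugar. Streptozotocin is a toxin of the insulin-producing beta cells and is used to model type 1 diabetes, so the T1D library carries the drug as well as the high blood sugar. The age and sex of the animals, the time after injection and the number of animals per library were not stated in the labels. Each group is 1 library, so differences could not be checked against replicates and no test between groups was possible. The 95% intervals below cover counting error only.

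Filtering kept 12803 of 12880 control barcodes and 15579 of 15771 T1D barcodes, and 253 barcodes occurred in both libraries. The control cells were deeper, with a median of 3633 counts against 2757 in T1D and a lowest total of 1904 against 1369, and 2 nuclear ribosomal RNA features made up 31.7% of counts in the median control cell and 35.9% in the median T1D cell. Clusters were built without the listed cell cycle genes, and each class name stands for cells resembling that type by marker genes. Pro-B or pre-B cells were found only in the control library, 1452 cells or 11.3% of it, while the mature neutrophil share was 18.7% in control and 27.2% in T1D. Any sum over all cells carries these gaps in depth, ribosomal RNA and class mix, and their part in the differences was not tested.

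Entry into mitosis is driven by Cdk1 bound to cyclins of the A and B type, and exit from it by the anaphase-promoting complex, which marks those cyclins for destruction. The genes of this phase are held silent in resting cells by the DREAM complex and switched on late in the cycle by MYBL2 and FOXM1, through short promoter elements that include CCAAT boxes bound by NF-Y and the cell cycle genes homology region. In bone marrow the programme marks dividing progenitors of the red cell, neutrophil, monocyte and B cell lines, while mature neutrophils have left the cell cycle for good.

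The promoters of 6 of the genes are shown as examples of stretches with and without these elements. They are the 150 bases before the annotated start, from RefSeq for the build GRCm38.p6, which is not the build of the count tables. Each is printed 5′ to 3′ on the gene's strand, and capitals mark CCAAT and also TTTGAA or TTCGAA on either strand, so that ATTGG and TTCAAA are the reverse forms and TTCGAA reads the same on both. Cdk1 is the mitotic kinase, Top2a untangles replicated chromosomes, Mki67 coats mitotic chromosomes, Cdc20 activates the anaphase-promoting complex, Cks2 is a small subunit of the Cdk1 complex and Tacc3 stabilises spindle microtubules. These genes were chosen after their values were seen, and they do not stand for the spread of the elements over the list. In Plk1, Aurka and Ttk, among others, TTTGAA or its reverse lies after the start, outside such a stretch.
Cdk1 promoter, chr10:69352913-69353062 (- strand): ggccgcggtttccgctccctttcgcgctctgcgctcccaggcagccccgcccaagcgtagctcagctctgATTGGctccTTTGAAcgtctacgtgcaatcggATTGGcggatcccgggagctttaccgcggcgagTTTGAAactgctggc
Top2a promoter, chr11:99024190-99024339 (- strand): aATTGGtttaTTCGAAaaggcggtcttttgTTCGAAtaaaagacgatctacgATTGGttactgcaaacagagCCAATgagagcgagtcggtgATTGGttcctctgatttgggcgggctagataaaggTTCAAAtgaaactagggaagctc
Mki67 promoter, chr7:135716380-135716529 (- strand): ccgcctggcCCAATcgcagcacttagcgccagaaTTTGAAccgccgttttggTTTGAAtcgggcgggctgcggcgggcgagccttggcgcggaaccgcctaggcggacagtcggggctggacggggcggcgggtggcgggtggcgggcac
Cdc20 promoter, chr4:118437344-118437493 (- strand): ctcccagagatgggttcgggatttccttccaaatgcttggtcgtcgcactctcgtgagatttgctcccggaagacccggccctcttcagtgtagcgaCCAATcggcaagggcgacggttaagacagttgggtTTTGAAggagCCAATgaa
Cks2 promoter, chr13:51645082-51645231 (+ strand): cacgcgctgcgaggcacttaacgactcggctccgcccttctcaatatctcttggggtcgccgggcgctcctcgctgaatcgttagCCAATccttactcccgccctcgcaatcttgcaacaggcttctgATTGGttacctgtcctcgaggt
Tacc3 promoter, chr5:33657978-33658127 (+ strand): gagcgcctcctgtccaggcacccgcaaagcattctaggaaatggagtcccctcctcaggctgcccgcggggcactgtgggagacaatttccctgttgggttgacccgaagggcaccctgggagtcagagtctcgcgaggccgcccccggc

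Promoter windows of 300 bases, from 250 before to 50 after the start, were found for 38 of the 44 genes, which have 40 such windows. CCAAT stood in 30 of the 40 windows, or 75%, against 37.4% of all 32851 promoters of the same length. TTTGAA or TTCGAA, the letters of the cell cycle genes homology region, stood in 32 windows, or 80%, against 19.2% of all promoters. Both kinds stood together in 27 windows, or 67.5%, against 7.52% of all promoters. Of 90 promoters of other G2 and mitosis genes, 73.3% held CCAAT and 58.9% held TTTGAA or TTCGAA. Of 46 promoters of S phase genes, 56.5% held CCAAT and 17.4% held TTTGAA or TTCGAA. The Top2a and Cdk1 stretches hold several of each, that of Cks2 holds CCAAT alone, and neither appears in the Tacc3 window. The 5 genes whose windows held none of these letters were Birc5, Mad2l1, Nuf2, Nusap1 and Tacc3. These are matches of letters and not shown to be sites of binding.

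Over all kept cells the 44 genes summed to 6032 CPM (counts of the genes per 1000000 counts of the library) in the control library, with an interval of 6011 to 6052. The sum was 5029.8 CPM in the T1D library, with an interval of 5010.5 to 5049. The ratio of T1D to control was 0.834, with an interval of 0.8297 to 0.8382. The share of cells with 3 or more of the genes was 29.8% (29.0% to 30.6%) in control and 30.3% (29.5% to 31.0%) in T1D, and without thinning it was 41.7% and 41.6%. It moved with the depth of the cells kept: in cells with at least 500 genes it was 30.02% and 32.8%, and in cells of at least 1904 counts 29.8% and 35.6%. The cells with many of the genes were fewer in T1D: 10 or more were detected in 11.2% of control and 7.88% of T1D cells. Cells with none were fewer as well, at 44.04% and 40.2%. The T1D cells were thus more often in the middle of the range, as the plot of genes per cell shows.

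**Figure D1:**
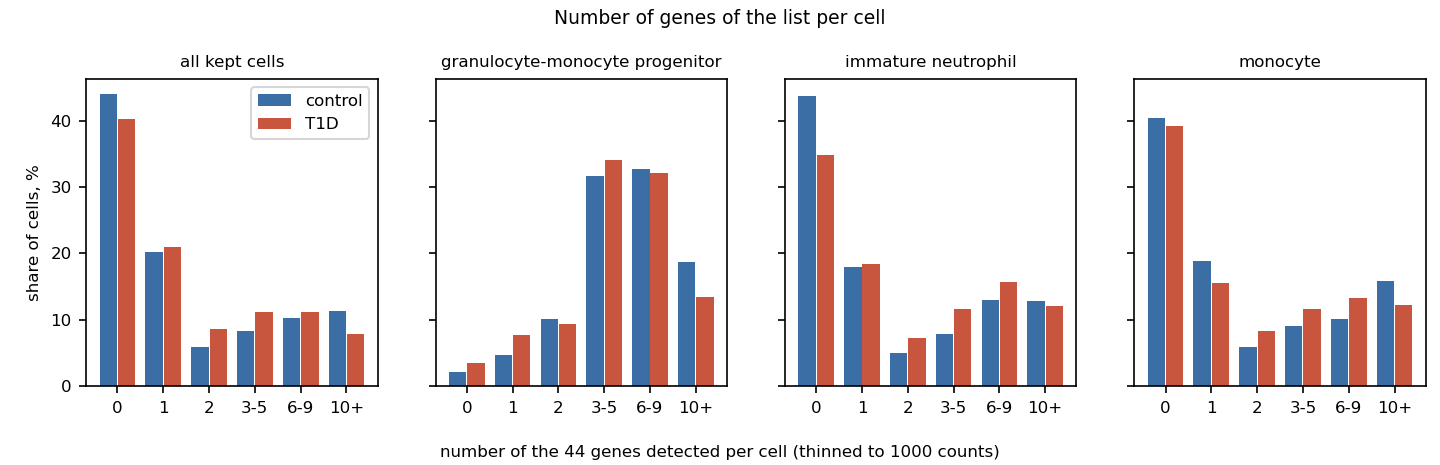
Share of cells (%, y axis) by the number of the 44 genes detected after thinning to 1000 counts (x axis), in all kept cells and in 3 classes; blue bars are the control library, red bars the T1D library. Cells with 10 or more of the genes are the smaller share in T1D in each panel, from 18.7% to 13.4% in granulocyte-monocyte progenitors.

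Gene by gene, 43 of the 44 had a ratio below 1 over all kept cells and 42 had an interval wholly below 1, where 41.1% of the 16207 genes with at least 20 counts did. A single member, Tacc3, had an interval above 1, against 20.1% of all genes. The median difference of the members was -0.26 on the log2 scale of CPM with 5 added, the scale of every log2 value given for a single gene, against -0.044 for all genes tested, and no member reached a difference of 2-fold. The lower level depends in part on scaling. With edgeR's TMM factors, which moved all ratios up by 0.13 on the log2 scale, 28 members had intervals below 1 and 5 above, and with DESeq2 size factors 29 and 3. Ccna2, Cenpe, Cenpf, Ncapg, Racgap1 and Ube2c, besides Tacc3, had ratios above 1 under both.

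The cyclins and their kinase were lower together by total counts. Cks2, the kinase subunit, showed the greatest difference of all members, with 91.9 CPM in control and 56.2 CPM in T1D, a ratio of 0.612 (0.585 to 0.640). Cdk1 itself was at 62.2 and 47.4 CPM. The A and B type cyclins that activate it stood closer, with ratios of 0.938 for Ccna2, 0.896 for Ccnb1 and 0.920 for Ccnb2. Among the other mitotic kinases, the spindle pole kinase Aurka was at 39.7 and 28.9 CPM and Pbk at 33.9 and 24.4 CPM. Aurkb, which corrects faulty chromosome attachments, and Plk1, which acts at several steps of mitosis, had ratios of 0.865 and 0.872.

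The genes of anaphase and of the chromosomal passenger complex were uneven. Cdc20 was at 36.9 CPM in control and 23.3 CPM in T1D, a ratio of 0.632 (0.588 to 0.679). Ube2c, the ubiquitin-conjugating enzyme that works with the anaphase-promoting complex, was at 272 and 260.3 CPM, a ratio of 0.958 (0.9358 to 0.9801). Cdca3, an F-box-like trigger of mitotic entry, had a ratio of 0.920. The passenger subunit Cdca8 was at 110 and 80.0 CPM, with a ratio of 0.728, while its partner Birc5 (survivin) had a ratio of 0.921.

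The spindle checkpoint, which delays anaphase until all chromosomes are attached, was the role with the lowest ratio of summed counts, 0.730 (0.706 to 0.754). Its kinase Bub1 was at 48.6 CPM in control and 31.2 CPM in T1D. Bub1b, Mad2l1 and Ttk had ratios of 0.716, 0.837 and 0.745. At the centromere and kinetochore, where chromosomes meet the spindle, the summed ratio was 0.880 (0.868 to 0.892). The large motor Cenpe and the kinetochore protein Cenpf had ratios of 0.947 and 0.938, whereas the microtubule-binding subunit Ndc80 and the kinetochore scaffold Knl1 were lower, at 0.727 and 0.752. Cenpa, the centromeric histone, had a ratio of 0.828, and Spc25 and Nuf2, partners of Ndc80, 0.908 and 0.923.

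The spindle and midzone genes repeated this spread. Hmmr, Nusap1 and Tpx2, which build or bind spindle microtubules, had ratios of 0.701, 0.723 and 0.723. The motors Kif11, Kif2c and Kif4 had 0.825, 0.832 and 0.765. Tacc3 was at 93.6 CPM in control and 98.4 CPM in T1D, a ratio of 1.05 (1.01 to 1.09). In the midzone, where the cell divides, the bundling protein Prc1 was at 80.0 and 54.1 CPM, a ratio of 0.676, while Racgap1 and Ect2, regulators of the cleavage furrow, had ratios of 0.946 and 0.897. Kif20a, Kif20b, Kif23 and Anln, motors and a scaffold of the same structure, had ratios of 0.710, 0.798, 0.828 and 0.865.

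Among the chromosome structure genes, Mki67, Top2a and the condensin subunit Smc4 together held 41.6% of the control library's counts of the 44 genes and 41.2% of the T1D library's. This is a share of counts that were not divided by gene length. Mki67 was at 1126 CPM in control and 934 CPM in T1D, Top2a at 821 and 668 CPM, and Smc4 at 563 and 469.8 CPM. Their ratios lay close together, at 0.829, 0.814 and 0.834, near that of the whole sum. The other condensin subunits differed from each other, with a ratio of 0.826 for Ncapd2 and 0.996 (0.9502 to 1.043) for Ncapg.

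**Figure D2:**
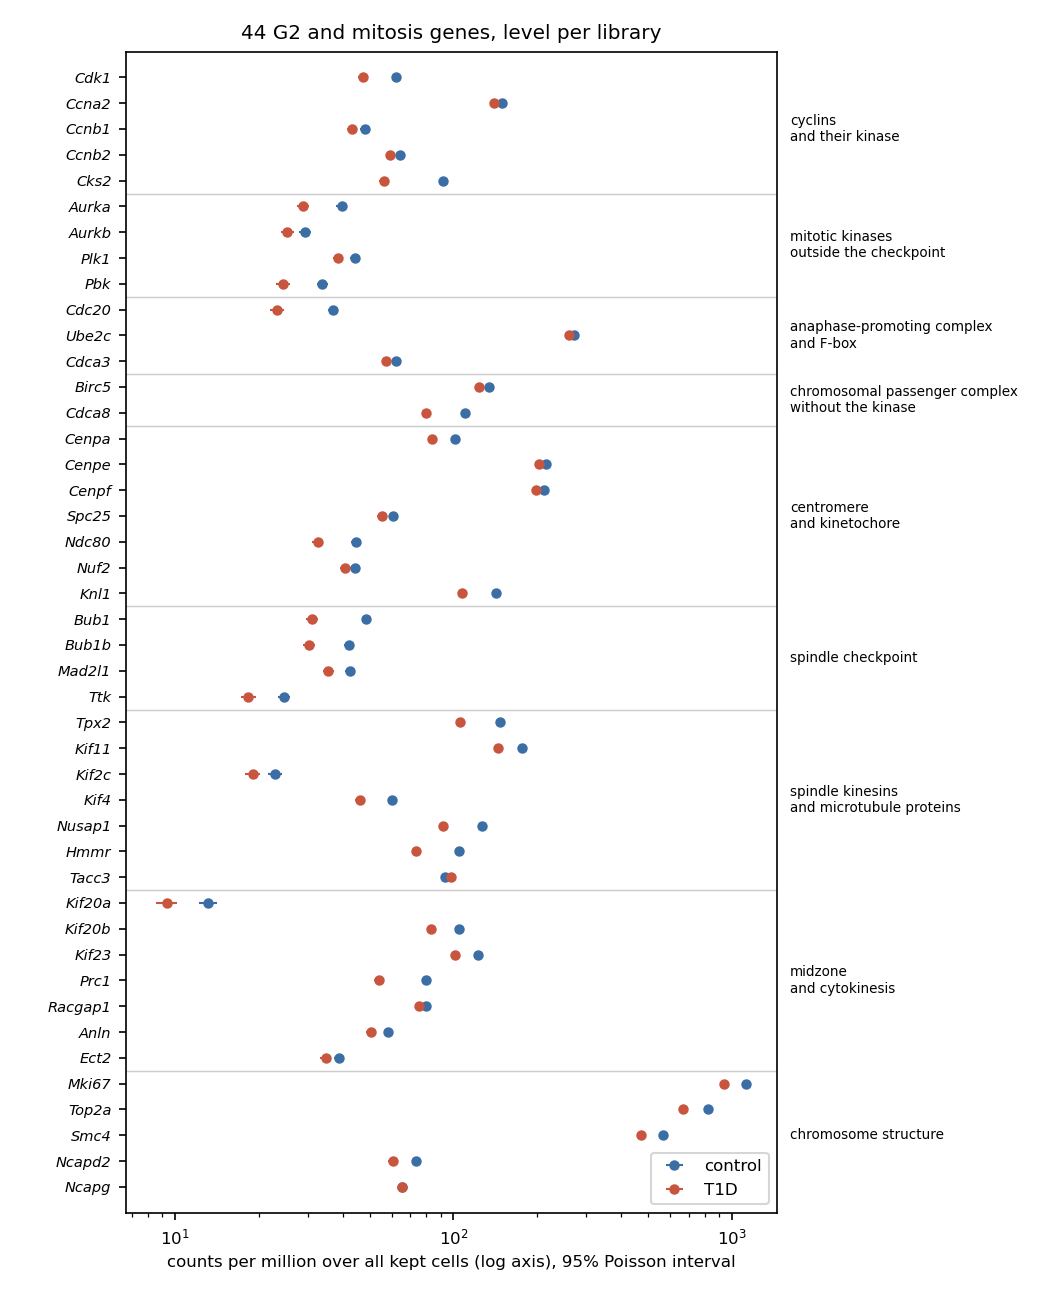
Level of each of the 44 genes over all kept cells in CPM (x axis, log scale), by role; blue points are the control library, red points the T1D library, and bars are 95% Poisson intervals, mostly narrower than the points. The red point lies left of the blue one for 43 genes, and to its right for Tacc3 (93.6 and 98.4 CPM).

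The sum was also computed at a common class mix. Weighted to the same mix of the 9 classes that held at least 100 cells in both libraries, the sum was 5623 CPM in control and 5258 CPM in T1D, a log2 ratio of -0.097, while the same 9 classes in their own mix gave -0.18 and all kept cells -0.26. The control-only pro-B or pre-B cells held 15.6% of the control library's counts of the 44 genes, at 9058 CPM, with 3 or more of the genes in 45.5% of cells. The size of the weighted difference was not stable. With each cell weighted equally, an alternative chosen after seeing the data, it was 0.0019. After taking off free RNA, its amount in each class set by the hemoglobin counts there, it was 0.043. That last value leaves out erythroid cells, and mature neutrophils in both libraries and mature B cells in control entered it at 0 CPM.

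The order of the 9 classes compared was alike in both libraries at its ends. Erythroid cells stood highest, at 13383 CPM (13238 to 13530) in control and 12674 CPM (12491 to 12859) in T1D, and 94.2% and 94.0% of them had 3 or more of the genes. Granulocyte-monocyte progenitors came next among the classes compared, at 9037 and 7900.4 CPM and 83.1% and 79.6% of cells. Mature neutrophils stood lowest, at 456 and 576 CPM, with 3 or more of the genes in 1.33% and 2.57% of cells at median depths of 2554 and 2104 counts. This is the level measured in the class named for cells that have left the cycle, with any free RNA included. It was not used to correct the shares of other classes.

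**Figure D3:**
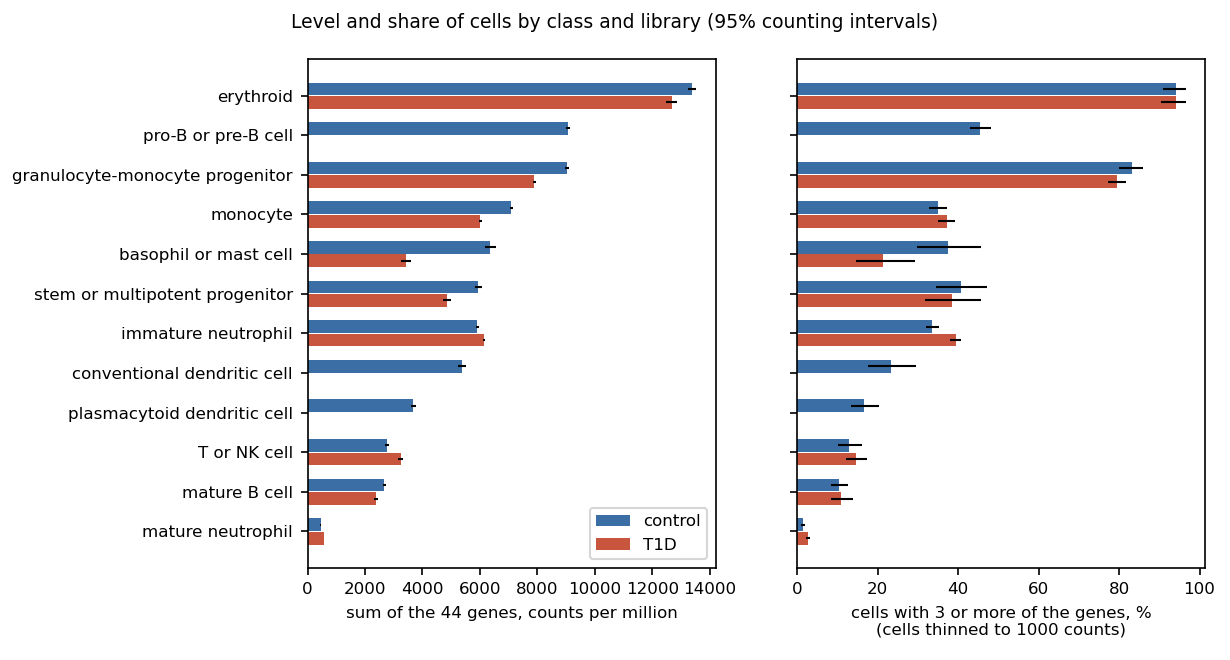
Summed level of the 44 genes (left, CPM) and share of cells with 3 or more of them after thinning (right, %), by class and library; bars of a library with fewer than 100 cells of a class are not drawn, and lines are 95% counting intervals. Erythroid cells and granulocyte-monocyte progenitors hold the highest shares in both libraries, 94.2% and 83.1% in control, and mature neutrophils the lowest, 1.33%.

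In erythroid cells the most abundant genes matched closely. Mki67 was at 2845 CPM in control and 2832 CPM in T1D, with a ratio of 0.995 (0.957 to 1.04), and Top2a at 1657 and 1675 CPM. Of the 44 genes, 15 had intervals below 1, against 15.3% of all genes, and Ube2c alone had one above 1, against 12.6%. The kinases Aurka, Pbk and Ttk were lower, with Aurka at 103 and 54.3 CPM and Ube2c higher, at 537 and 639 CPM. The class's median depth was 7630 counts in control and 5096.5 in T1D.

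Granulocyte-monocyte progenitors, the source of neutrophils and monocytes, had a summed ratio of 0.874 (0.864 to 0.885). Intervals lay below 1 for 23 of the 44 genes, where 23% of all genes did, and above 1 for 0, where 17.7% of all genes did. Bub1 was at 94.8 CPM in control and 64.6 CPM in T1D, Hmmr at 162 and 112 CPM, and Cks2 at 150 and 104 CPM. Nuf2, Cenpa and Ncapg, at the other end, had log2 differences of 0.099, 0.081 and 0.046 with intervals that included 1. Both clusters of the class were lower in T1D, at 9247 and 8213 CPM in cluster 6 and at 8836 and 7417 CPM in cluster 15. The median depth of the class was 7884 counts in control and 4818 in T1D.

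Monocytes resembled the progenitors, with 7097 CPM in control and 6014 CPM in T1D, a ratio of 0.847 (0.838 to 0.857). Intervals lay below 1 for 31 genes, against 27.1% of all genes, and above 1 for Cenpf and Tacc3, against 20%. Prc1 was lowest, at 104 and 60.4 CPM. The share of cells with 3 or more of the genes was 34.9% and 37.1%, so the level and the share did not move together. Different clusters held much of the class in each library. Cluster 7, led by genes such as Itga1 and Olfm1, was highest, at 14469 and 12476 CPM, with 87.1% and 88.2% of cells detecting 3 or more. Cluster 9, led by Saa3 and Vcan, with 252 control and 627 T1D cells, was slightly higher in T1D, at 5775 and 5931 CPM, a ratio of 1.03 (1.003 to 1.051), with 37.3% and 41.0% of cells detecting 3 or more. Cluster 27 was lower, at 1467 and 1211 CPM. Cluster 8, with 872 control and 107 T1D cells, was at 1292 and 2642 CPM, and cluster 10, with 34 and 836 cells, at 1019 and 1270.3 CPM.

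Immature neutrophils did not share the lower sum, with 5914 CPM (5873 to 5955) in control and 6146 CPM (6107 to 6184) in T1D, a ratio of 1.04 (1.03 to 1.05). The share of cells with 3 or more of the genes was 33.5% in control and 39.4% in T1D. Intervals lay above 1 for 18 genes, where 26.5% of all genes did, and below 1 for 12, where 17.4% did. Cenpf was at 222 CPM in control and 292 CPM in T1D and Racgap1 at 66.8 and 87.0 CPM, whereas Cks2 was at 108 and 70.4 CPM and Cdc20 at 37.1 and 24.9 CPM. The direction of the sum was not stable: under TMM factors the log2 ratio was -0.0097, and with another start of the clustering -0.17.

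The clusters of immature neutrophils went opposite ways. Cluster 2, led by Fcnb, had the highest sum and was lower in T1D, at 13082 and 12446 CPM, with 90.8% and 90.7% of cells detecting 3 or more of the genes. Its leading genes also included Spc25, a member of the list, and Neil3, Depdc1a and E2f7 from the other cell cycle lists. Cluster 11 was lower too, at 8320 and 7538 CPM. Cluster 4 was at 1546 and 2040.4 CPM and cluster 0, near the level of mature neutrophils, at 440.4 and 787 CPM, both higher in T1D. The plot of myeloid clusters shows both directions among clusters with a low sum. Hemoglobin counts in immature neutrophils stood at 18.04% of the whole library's level in control and 42.8% in T1D, and the part of free RNA in the low clusters was not tested.

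**Figure D4:**
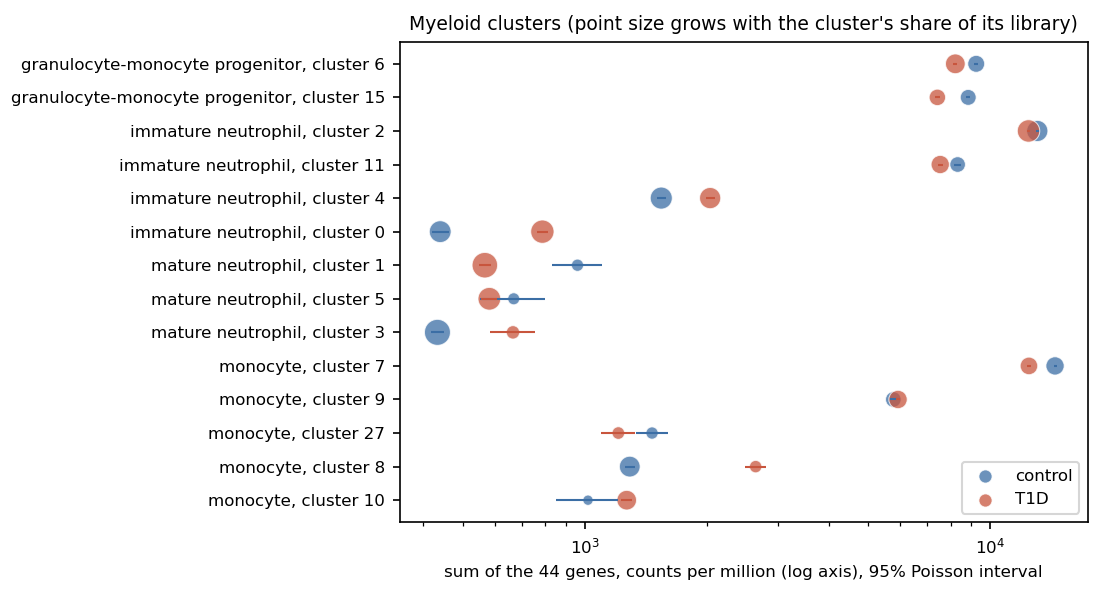
Summed level of the 44 genes (x axis, CPM, log scale) in the clusters of the neutrophil and monocyte lines; blue points are the control library, red points the T1D library, lines are 95% Poisson intervals and point size grows with the cluster's share of its library. T1D lies left of control in clusters 6, 15, 2, 11, 7, 1, 5 and 27 (12446 against 13082 CPM in cluster 2) and right of it in clusters 4, 0, 3, 8, 9 and 10, and the lines overlap in clusters 5 and 9.

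Mature neutrophils had a ratio of 1.26 (1.21 to 1.32). Of the 43 genes with enough counts, 20 had intervals above 1, against 26.5% of all genes, and 3 below 1, Cks2, Kif23 and Smc4, against 17.5%. Mki67 was at 72.1 CPM in control and 111 CPM in T1D, and Cks2 at 35.1 and 16.7 CPM. These levels are a small part of those in dividing classes. Hemoglobin genes stood at 51.1% of the library's level in control and 85.8% in T1D. Subtraction of free RNA at that level left nothing of the sum in either library. Judged instead from Jchain and Igha, free RNA stood at 3.85% in control and 6.77% in T1D. Its subtraction left 232 CPM in control and 253 CPM in T1D, a log2 ratio of 0.12. The part of free RNA in the sum thus depended on the genes used to judge it. Different clusters held most of the class in each library, and they went opposite ways. Cluster 3, with 2242 control and 153 T1D cells, had a ratio of 1.54 (1.34 to 1.75). Cluster 1, with 82 and 2534 cells, had a ratio of 0.591 (0.513 to 0.684), and cluster 5, with 75 and 1549 cells, one of 0.871 (0.723 to 1.06).

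Stem or multipotent progenitor cells were at 5943 CPM in control and 4854 CPM in T1D, a ratio of 0.817 (0.788 to 0.846), in 238 and 197 cells. Intervals lay below 1 for 17 genes, against 11.2% of all genes, and above 1 for 0, against 12.1%. Cks2 was at 125 and 55.0 CPM and Cdc20 at 38.1 and 16.985 CPM. The share of cells with 3 or more of the genes was 40.8% (34.5% to 47.3%) and 38.6% (31.7% to 45.8%).

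Basophils or mast cells showed the greatest difference among the 9 classes compared, at 6364 CPM (6179 to 6552) in control and 3419 CPM (3243 to 3602) in T1D, a ratio of 0.537 (0.506 to 0.570). The share with 3 or more of the genes was 37.5% (29.8% to 45.7%) of 152 cells and 21.2% (14.6% to 29.2%) of 132 cells. Of the 42 genes with enough counts, 24 had intervals below 1, against 11.3% of all genes, and 0 above 1, against 7.37%. Mki67 was at 1032 CPM in control and 619 CPM in T1D, and Mad2l1, at 41 and 2 counts, had a ratio of 0.084 (0.010 to 0.323). The ratio of the sum stayed below 1 under all 15 alternatives, with log2 values from -1.19 to -0.79. The class's median depth was 4257 counts in control and 2748 in T1D.

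The lymphoid classes compared between libraries, T or NK cells and mature B cells, were low and mixed. T or NK cells were at 2776 CPM in control and 3238 CPM in T1D, a ratio of 1.17 (1.12 to 1.21), with 9 genes above 1, against 12.6% of all genes, and 0 below, against 13.9%. Their clusters disagreed. Cluster 12, led by Ccl5 and Il2rb, was at 2452 and 1740.4 CPM. Cluster 22, led by Tcf7 and Trbc2, was at 1946 and 3470 CPM. Cluster 30, which also carries monocyte markers, held 31 and 58 cells, at 6382 and 6958 CPM. It held 1385 of the class's 5097 control counts of the 44 genes and 2104 of its 7040 T1D counts. The size of the class's difference was not stable: its log2 ratio was 0.22, and 2.32 after taking off free RNA by the hemoglobin counts, which left 369 and 1846 CPM. Cells with 3 or more of the genes made up 12.96% and 14.6%. Mature B cells were at 2680 and 2383 CPM. They had 8 genes below 1, which is near the 18.1% of all genes, and 1 above, against 9.42%. Their clusters went opposite ways too, cluster 13 from 2643 CPM in control to 934 CPM in T1D and cluster 17 from 2714 to 3196 CPM. The log2 ratio of the class was -0.17, and it ran from -0.59 at a clustering resolution of 0.5 to 0.12 in cells of at least 1904 counts. Pbk was at 33 and 3 counts there, and cells with 3 or more of the genes made up 10.4% and 10.8%.

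Cks2 was the only one of the 42 genes with enough counts in all 9 classes to have a ratio below 1 in each of them. Its log2 difference ran from -1.12 in stem or multipotent progenitor cells to -0.40 in T or NK cells, and its interval lay below 1 in 8 classes, all except T or NK cells. Of the 5147 genes with enough counts in all 9 classes, 7.69% had a ratio below 1 in each. An interval below 1 in at least 8 classes was found for 2.51% of them. The share of the 42 members was 2.38% by either count, below the first share and near the second. A gene of this kind was thus no more frequent among the members than among all genes. Cks2 was also among the genes least like the rest of the list across classes, with its highest level, 244 CPM, in control basophils or mast cells. Bub1, Kif23, Tpx2 and Smc4 had ratios below 1 in 8 classes each. Tacc3 and Cenpe, in contrast, had ratios above 1 in 7 classes each.

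**Figure D5:**
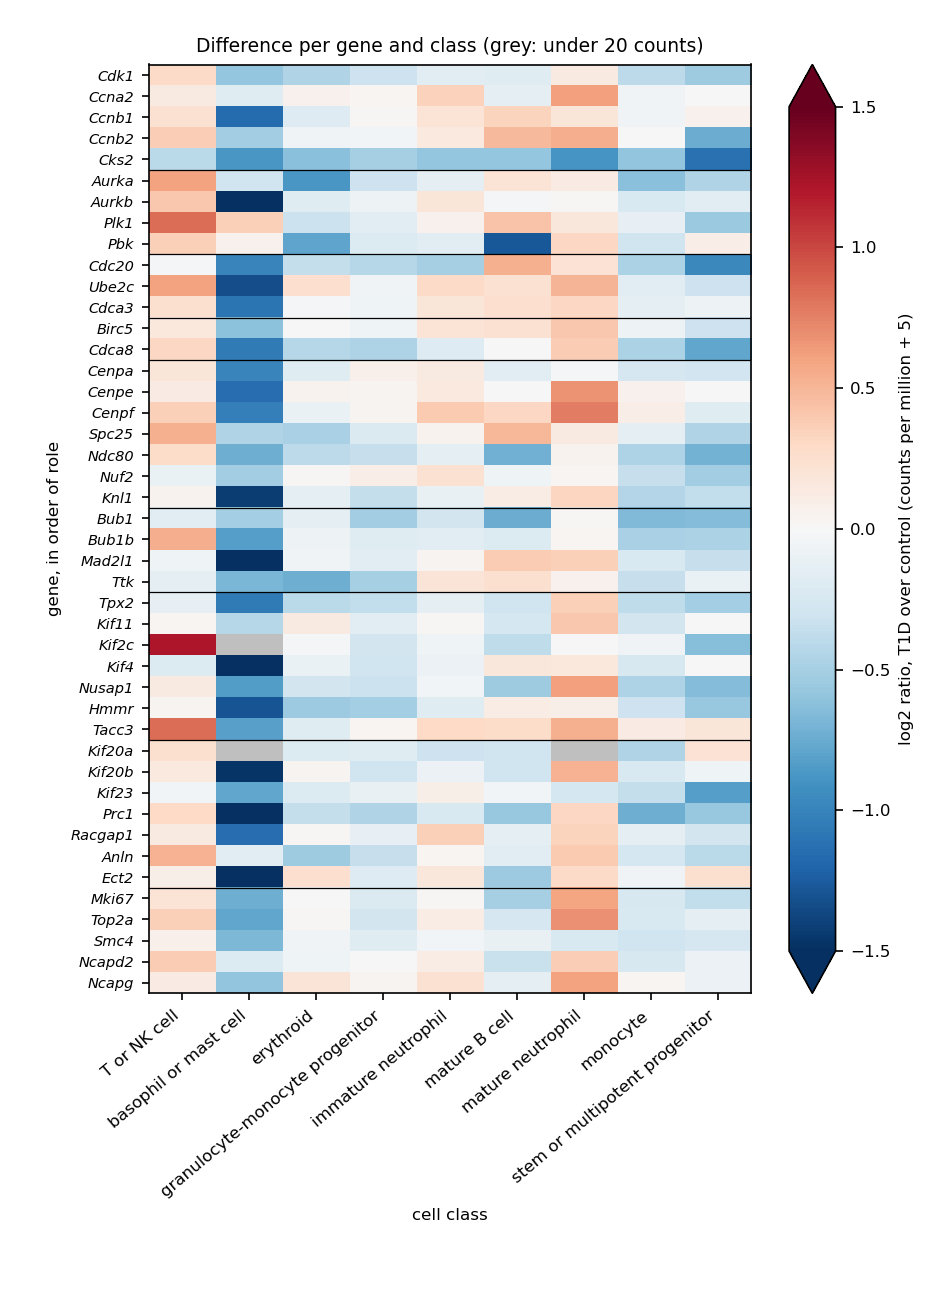
Log2 ratio of T1D to control for each of the 44 genes (rows, by role) in 9 classes (columns), on CPM with 5 added; blue is lower and red higher in T1D, and grey marks genes with under 20 counts. The row of Cks2 is blue in every column (-1.12 to -0.40), and the column of basophils or mast cells is blue for 40 of 42 genes.

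The genes moved together across classes. Over 21 sums of a class in a library, the Spearman correlation of each gene with the sum of the other 43 ran from 0.78 for Racgap1 to 0.98 for Hmmr, with a median of 0.94. These sums share libraries, depth and free RNA, so the values are a description. Outside the list, genes among the most like its sum were Ncaph, Incenp, Kif22, Hist1h1b, Rad21, Ckap5, Dlgap5, Cmc2 and Fbxo5, with correlations from 0.95 to 0.98.

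Cells with 3 or more of the genes were set beside cells of the same class with none. They held more counts of other G2 and mitosis genes and of S phase genes in every class and library with enough cells of both kinds. The gap differed between classes. The S phase ratio was highest in immature neutrophils, the class described next, at 14.4 in control and 12.2 in T1D. It was 7.94 and 9.47 in monocytes, 2.53 and 2.16 in stem or multipotent progenitor cells, and 2.60 in T1D mature neutrophils. In control immature neutrophils, 99 other G2 and mitosis genes summed to 10835 CPM in the cells with 3 or more and 1902 CPM in those with none. S phase genes, which act in DNA replication, summed to 3228 and 223 CPM there, a ratio of 14.4 (13.6 to 15.3), and to 3534 and 289.7 CPM in T1D. Regulators of the programme (DREAM, E2F, FOXM1 and MYBL2) had a ratio of 3.13 in control and 2.90 in T1D. In T1D mature neutrophils the ratio of the regulators was 1.22 (0.999 to 1.47). Inhibitors of the cycle and antiproliferative genes ran the other way in immature neutrophils, with a ratio of 0.693 in control and 0.786 in T1D. The cells with 3 or more were deeper, with median totals of 4722 and 3199 counts in control, and the part of depth was not tested. Of the cells with 3 or more of the genes, 43.4% in control and 44.2% in T1D also held 3 or more S phase genes, against 98.2% and 96.6% in erythroid cells. Among all cells of the class, 16.5% and 20.2% of immature neutrophils held 3 or more S phase genes. In erythroid cells that share was 95.9% and 95.6%, close to the share in cells with 3 or more of the 44 genes.

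Over all kept cells the counts of the other lists are read against the same shares of all genes, 41.1% with intervals below 1 and 20.1% above. Of 99 other G2 and mitosis genes, 71 had intervals below 1 and 8 above, with a median log2 difference of -0.19. Anapc11, a subunit of the anaphase-promoting complex, was at 38.1 and 21.7 CPM, and the chromatin protein Hmgb2 at 1182 and 1054 CPM. Of 51 S phase genes, 36 were below and 4 above, with a median of -0.17. Pcna, the sliding clamp of replication, was at 192 and 155 CPM, and Rrm2, which helps to make deoxynucleotides, at 141 and 169 CPM. Of 19 regulators, 8 were below, which is near the share of all genes, and 7 above, with a median of 0.034. Foxm1 was at 24.4 and 17.8 CPM, E2f4 at 41.2 and 24.3 CPM, and Tfdp1, the partner of E2F proteins, at 90.4 and 114 CPM. Of 12 inhibitors and antiproliferative genes with enough counts, 8 were below and 2 above. Of 11 G1 cyclins and kinases 7 were below and 3 above, with Ccnd1 at 20.98 and 6.501 CPM. By class the S phase genes went both ways, beside the shares of all genes given above for each class. Erythroid cells had 21 with intervals below 1 and 2 above, granulocyte-monocyte progenitors 15 and 3, and mature B cells 8 and 1. Monocytes had 7 and 11, and stem or multipotent progenitor cells 4 and 7. Basophils or mast cells had 2 and 3, and T or NK cells 2 and 5. Immature neutrophils had 2 and 24, and mature neutrophils 1 and 11.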

How the data were processed

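Marrow was digested with collagenase and dispase, strained, treated to lyse red cells and made into libraries with the Singleron GEXSCOPE kit, per the labels' protocols. The authors deposited raw counts, 1 table per library with genes in rows and barcodes in columns. bcl2fastq 2.19, featureCounts and the build mm9 are named in the submitters' processing notes. The aligner, the annotation, how cells were called and whether molecular identifiers were collapsed: not given in the sources used here. A count may thus not be 1 molecule.

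A cell was kept from 200 genes upward if mitochondrial counts did not exceed 20%. No doublet caller was run. Cells were clustered with both libraries together, without integration, on variable genes (2000 per library, without cell cycle, histone, hemoglobin, mitochondrial, sex-linked and antigen receptor genes), 30 principal components and 15 neighbours, by the Leiden method of igraph 0.11.9 (resolution 1, best modularity of 10 starts), which gave 33 clusters. Classes were named where 3 or more markers reached 50 CPM and exceeded the other cells by 2-fold. The joining of T and NK markers, leaving hemoglobin out of naming, and leaving clusters with markers of a pair of classes unnamed were decided after seeing clusters.

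Levels are CPM of summed counts with exact Poisson intervals. Shares have Clopper-Pearson intervals, and ratios conditional binomial ones. Single-gene log2 ratios use a pseudocount of 5 CPM and genes with at least 20 counts. Interval functions were tested on simulated data. TMM factors came from edgeR 4.0.16 and size factors from DESeq2 1.42.0, for scaling only. The members and lists were chosen with earlier results of these data known. All members are named by role, and in each class the ends of the order of log2 ratios and the genes with the most counts. Of the genes outside the list whose pattern was most like its sum, 1 is not reported here. Alternatives covered scaling, cell filters, thinning, clustering and free RNA.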

Additional observations from a re-analysis of the deposited data

Results flagged for a closer look

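The summed level of the 44 genes was lower in T1D over all kept cells and in 6 of the 9 classes, but the log2 ratio was above 0 in 3: 0.22 in T or NK cells, 0.055 in immature neutrophils and 0.34 in mature neutrophils. The difference between classes was not tested, and each of these changed sign under at least 1 alternative. Plasmacytoid dendritic cells, too few in T1D for a comparison, were at 3684 CPM in 453 control cells and 6196 CPM in 81 T1D cells. Plasma cells were at 1177 CPM in 69 control cells and 1387 CPM in 93 T1D cells. Stromal or endothelial cells were at 329.9 and 1059.7 CPM, from 25 counts in 18 control cells and 42 counts in 13 T1D cells. The level in T1D was above the control's in each.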

How the results depend on the processing

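All values here are log2 ratios of T1D to control unless named otherwise. Weighting cells equally, leaving out the unnamed clusters or clusters 0 and 4, and needing 10 genes were chosen after seeing the data. The summed level over all kept cells stayed lower in T1D under all 10 alternatives: -0.13 with TMM factors, -0.16 with DESeq2 size factors, -0.18 without ribosomal RNA in the totals, -0.20 with at least 500 genes a cell, -0.14 in cells of at least 1904 counts, -0.20 without B lineage and plasma cells, -0.24 without unnamed clusters, -0.21 with cells weighted equally. The median over the 44 genes stayed below 0 under all 13: -0.13 with TMM factors, -0.16 with DESeq2 size factors, -0.19 without ribosomal RNA in the totals, -0.21 with at least 500 genes a cell, -0.15 in cells of at least 1904 counts, -0.27 without the top 2% of totals, -0.20 without B lineage and plasma cells, -0.24 without unnamed clusters, -0.27 with a pseudocount of 1 CPM, -0.21 with cells weighted equally. The number of genes with an interval below 1 was 26 with cells weighted equally and at least 28 otherwise. The share of cells with 3 or more of the genes took both signs: 0.13 with at least 500 genes a cell, 0.26 in cells of at least 1904 counts, -0.080 after thinning to 500 counts, 0.12 with 2 genes needed, -0.11 with 5 needed, -0.51 with 10 needed. The class-weighted sum changed sign with equal weights and with hemoglobin-level subtraction: -0.11 with TMM factors, -0.11 with DESeq2 size factors, -0.038 without ribosomal RNA in the totals, -0.077 with at least 500 genes a cell, -0.059 in cells of at least 1904 counts, -0.079 without the top 2% of totals, 0.0019 with cells weighted equally, -0.073 at Leiden resolution 0.5, -0.067 at resolution 2, -0.18 from another start, -0.16 with cell cycle genes clustered, -0.19 by marker sets without clusters, 0.043 with free RNA taken off as judged by hemoglobin, -0.047 as judged by Jchain and Igha. Granulocyte-monocyte progenitors stayed lower under all 15: -0.15 with DESeq2 size factors, -0.13 without ribosomal RNA in the totals, -0.17 without the top 2% of totals, -0.17 with cells weighted equally, -0.16 at Leiden resolution 0.5, -0.17 at resolution 2, -0.22 by marker sets without clusters, -0.16 with free RNA taken off as judged by hemoglobin. Immature neutrophils changed sign under 6 of 16: -0.0097 with TMM factors, -0.0095 with DESeq2 size factors, 0.14 without ribosomal RNA in the totals, 0.11 with at least 500 genes a cell, 0.13 in cells of at least 1904 counts, 0.12 with cells weighted equally, 0.10 at Leiden resolution 0.5, 0.11 at resolution 2, -0.17 from another start, -0.12 with cell cycle genes clustered, -0.019 by marker sets without clusters, -0.15 without clusters 0 and 4, 0.25 with free RNA taken off as judged by hemoglobin, 0.070 as judged by Jchain and Igha. Other classes reversed as follows. Erythroid cells were at 0.011 without the top 2% of totals, 0.0054 with cells weighted equally, 0.36 as judged by Jchain and Igha. T or NK cells were at -0.18 by marker sets without clusters, mature neutrophils at -0.037 by marker sets without clusters and mature B cells at 0.12 in cells of at least 1904 counts. Without a change of sign, values moved by over 1.5 times in several classes, among them monocytes from -0.24 to -0.10 with cells weighted equally and -0.14 as judged by hemoglobin, stem or multipotent progenitor cells from -0.29 to -0.12 without the top 2% of totals and -0.46 from another start, mature neutrophils from 0.34 to 0.71 at resolution 2, mature B cells from -0.17 to -0.59 at resolution 0.5 and -0.56 by marker sets, erythroid cells to -0.33 by marker sets, and T or NK cells from 0.22 to 2.32 as judged by hemoglobin. Subtraction at the hemoglobin level gave no value for erythroid cells, mature B cells and mature neutrophils, and Leiden resolution 0.5 gave none for stem or multipotent progenitor cells. The class-weighted sum at the hemoglobin level thus left out erythroid cells. The causes were not tested. No paired analysis was possible because each group has 1 library. At these depths a gene such as Mad2l1 in T1D basophils or mast cells rests on 2 counts.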

Other observations

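Megakaryocyte-lineage cells, 26 in control and 51 in T1D, were at 9355 and 4282 CPM of the 44 genes. Conventional dendritic cells were at 5391 and 5110.2 CPM in 211 and 66 cells, and C1q-expressing macrophages at 2144 and 2056 CPM in 87 and 69 cells. Within the control-only pro-B or pre-B cells the clusters differed: cluster 18 was at 14705 CPM, cluster 26, led by Igll1 and Vpreb1, at 10524 CPM, and cluster 16, led by Il2ra, at 4476 CPM. Cluster 14 had no class and was led by Prg2, hemoglobin and ribosomal RNA features. It held 52 control and 655 T1D cells, at 3788 and 3008 CPM, with 3 or more of the genes in 38.5% and 34.8% of cells. Cluster 25, with markers of both B cells and monocytes, held 219 control and 52 T1D cells, at 6867 and 3978 CPM.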
